A study of Mus musculus with 12 samples.

Results

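The 10 genes described here make the TGF-beta ligands (Tgfb1, Tgfb2 and Tgfb3), their receptors and co-receptors (Tgfbr1, Tgfbr2, Tgfbr3, Eng and Acvrl1) and a pair of proteins that hold the latent ligand (Ltbp1 and Ltbp4). They were chosen by name. Each had 1 row among the 39017 genes of the count tables, so that all 10 members were found in the culture table and in the tumor table. RNA was measured by sequencing after removal of ribosomal RNA in 12 libraries of 4T1, a mouse triple-negative mammary carcinoma line. There were 3 tumors labelled POGZ KO, 3 tumors labelled VC, 3 KO-labelled cultures and 3 VC-labelled cultures. The labels give the genotype of the VC samples as POGZ WT. The cultures grew in medium with 10% serum to 75% confluency. For tumors, 50k cells were placed in a mammary fat pad of BALB/c mice aged 8 weeks, the strain that 4T1 came from, and the tumors were taken after 28 days and frozen. The hosts' cells are therefore also mouse cells, and their reads cannot be told apart from those of the tumor cells. How POGZ was ablated, whether the KO cells were 1 clone and whether the 3 libraries of a culture group came from separate cultures are not given in the sources used here. The p-values measure the spread between these libraries, which may be technical in the cultures.

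TGF-beta is secreted in a latent form, folded within its own propeptide and tied by LTBP proteins to the matrix, from which integrins, thrombospondin or proteases can free it. The free ligand binds the type II receptor kinase Tgfbr2, which then phosphorylates the type I receptor kinase Tgfbr1, and Tgfbr1 phosphorylates the transcription factors Smad2 and Smad3. Tgfbr3 (betaglycan) presents ligand to Tgfbr2 and matters most for Tgfb2, while Eng (endoglin) and the type I receptor Acvrl1 (ALK1) are best known from endothelial cells. In mammary carcinoma the pathway is known both for arresting growth and for promoting invasion and metastasis, and TGF-beta signaling is named in the title of the series.

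All 10 are protein-coding genes, placed here on GRCm38 by GENCODE M21. On the plus strand lie Tgfb1 (ENSMUSG00000002603) at chr7:25687002-25705077, Tgfbr1 (ENSMUSG00000007613) at chr4:47353222-47414931, Eng (ENSMUSG00000026814) at chr2:32646595-32682669, Acvrl1 (ENSMUSG00000000530) at chr15:101128522-101145336 and Ltbp1 (ENSMUSG00000001870) at chr17:75005568-75392512. On the minus strand lie Tgfb2 (ENSMUSG00000039239) at chr1:186622792-186705989, Tgfb3 (ENSMUSG00000021253) at chr12:86056745-86079041, Tgfbr2 (ENSMUSG00000032440) at chr9:116084293-116175360, Tgfbr3 (ENSMUSG00000029287) at chr5:107106570-107289629 and Ltbp4 (ENSMUSG00000040488) at chr7:27305136-27337692. Annotated exon bases are shared with a gene of the other strand in Tgfb2 (124 bases), Tgfb3 (420), Eng (61) and Acvrl1 (127), and with one of the same strand in Tgfbr3 (297), so that a few of their reads may belong to those genes.

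Total counts ran from 12128993 to 13043831 in KO tumors, from 4712001 to 8338828 in VC tumors, from 14724518 to 21863223 in KO cultures and from 17714560 to 18643217 in VC cultures. RNA of the targeted gene Pogz was not lower in the samples labelled KO. It averaged 68.3 ± 0.428 CPM (counts scaled by the library's total; SD, n = 3) in KO cultures and 50.3 ± 2.03 CPM in VC cultures, and 107 ± 23.4 CPM in KO tumors and 99.3 ± 11.9 CPM in VC tumors. The log2 fold change was 0.45 ± 0.04 in cultures and 0.11 ± 0.20 in tumors (SE; edgeR, Benjamini-Hochberg adjusted p = 3.66e-06 and 0.944). Pogz lies on chromosome 3, where the median of 509 genes was higher by 0.33 in KO cultures, and relative to its chromosome's median Pogz was higher by 0.12 ± 0.04 (SE; edgeR, adjusted p = 0.0404). Over all alternatives in culture its adjusted p ran from 2.93e-14 to 0.098. KO and VC are therefore the labels of the samples, and each direction below is that of KO-labelled over VC-labelled samples. The summed level of 8 epithelial markers of 4T1 cells was 1677 to 2008 CPM in KO tumors, 1789 to 2260 CPM in VC tumors, 3542 to 3632 CPM in KO cultures and 3204 to 3566 CPM in VC cultures. Tumor POGZ_KO_8454 of the KO group stood apart from the other 5 tumors in several of these genes, with the highest level of 4 of the 10 members, and results that rest on it are also given without it.

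The promoter stretches of 4 members are shown because these genes moved in culture in opposite directions, Tgfb1 and Tgfbr1 being lower and Tgfb2 and Eng higher in KO cultures. Relative to its chromosome's median Tgfbr1 was not called (-0.15 ± 0.06 SE; edgeR, adjusted p = 0.0562). Each is the 250 bases before the gene's start, 5′ to 3′ on the gene's strand, from RefSeq on GRCm38.p6. They are chr7:25686752-25687001 on the plus strand for Tgfb1, chr4:47352972-47353221 on the plus strand for Tgfbr1, chr1:186705990-186706239 on the minus strand for Tgfb2 and chr2:32646345-32646594 on the plus strand for Eng. Capitals mark the GC box GGGCGG (the core of SP1 sites), the SMAD box CAGAC and the AP-1 site TGANTCA, each searched on both strands, where CCGCCC and GTCTG are the other strand's letters of the first and second of these.
Tgfb1: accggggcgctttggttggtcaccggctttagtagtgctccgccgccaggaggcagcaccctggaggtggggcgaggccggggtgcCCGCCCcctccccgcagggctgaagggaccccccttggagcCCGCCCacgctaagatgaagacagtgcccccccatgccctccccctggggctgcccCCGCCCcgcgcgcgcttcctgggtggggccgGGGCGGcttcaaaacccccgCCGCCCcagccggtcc
Tgfbr1: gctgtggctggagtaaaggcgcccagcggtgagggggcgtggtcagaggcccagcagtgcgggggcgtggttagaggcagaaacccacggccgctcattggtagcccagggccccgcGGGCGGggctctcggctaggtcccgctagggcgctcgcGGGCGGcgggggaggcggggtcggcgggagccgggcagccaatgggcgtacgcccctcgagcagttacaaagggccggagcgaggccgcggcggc
Tgfb2: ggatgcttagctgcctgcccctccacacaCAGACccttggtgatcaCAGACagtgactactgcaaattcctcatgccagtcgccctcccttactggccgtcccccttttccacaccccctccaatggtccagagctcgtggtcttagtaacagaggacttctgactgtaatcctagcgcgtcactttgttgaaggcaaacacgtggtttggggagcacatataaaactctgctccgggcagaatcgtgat
Eng: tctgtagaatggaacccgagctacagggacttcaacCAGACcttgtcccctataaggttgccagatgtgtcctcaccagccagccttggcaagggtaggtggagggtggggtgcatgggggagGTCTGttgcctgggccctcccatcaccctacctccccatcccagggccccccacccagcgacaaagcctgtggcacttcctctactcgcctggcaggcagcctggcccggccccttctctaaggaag
The Tgfb1 stretch held 5 GC boxes and the Tgfbr1 stretch 2, and neither held a SMAD box. The Tgfb2 and Eng stretches held 2 SMAD boxes each and no GC box. None of the 4 held the AP-1 letters. The Tgfb1 stretch had 21 CG dinucleotides and the Tgfbr1 stretch 29, against 8 in Tgfb2, 4 in Eng and a median of 6 over all windows in the table. The table also gives Tgfbr1 a second window, chr4:47385966-47386215, which is not shown and held no GC box, 1 SMAD box and 3 CG dinucleotides. Of all 32851 promoter windows of this length in the table, 32.7% held a GC box, 42.2% a SMAD box and 6.75% an AP-1 site. The windows of Tgfbr2 and Ltbp1, not shown, held no GC box and 1 or 2 SMAD boxes each. Those of Ltbp4, not shown, held 3 to 7 GC boxes and no SMAD box. These matches describe letters in the windows and say nothing of a factor's binding. The 4 stretches were picked by direction in these same data, and a link between letters and direction was not tested. RefSeq windows were found for 7 members, and Tgfb3, Tgfbr3 and Acvrl1 are named only.

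In culture, KO cells carried less RNA of the ligand Tgfb1 and of the receptor Tgfbr1, and more of Tgfb2, Tgfb3 and the co-receptor Eng. The co-receptor Tgfbr3, low in both groups, was lower still in KO cells. Of the 9 members that passed the filter on low counts, 5 were higher and 4 were lower at an adjusted p under 0.05 (edgeR's quasi-likelihood test, Benjamini-Hochberg adjustment over all genes). Acvrl1 was not tested, with 0 counts in the 3 KO cultures and 1 count in the 3 VC cultures together. Calls were common among all 15705 genes tested, of which 23.0% were higher and 24.9% lower, and the median log2 fold change was 0.10 over the 9 members and -0.01 over all genes. All 9 members had KO and VC groups that did not overlap, for which the exact two-sided permutation test gives 0.1, the smallest p that 3 against 3 libraries allow. How many of all 15705 genes had groups without overlap was not counted, so this is not set apart from the other genes.

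**Figure D1:**
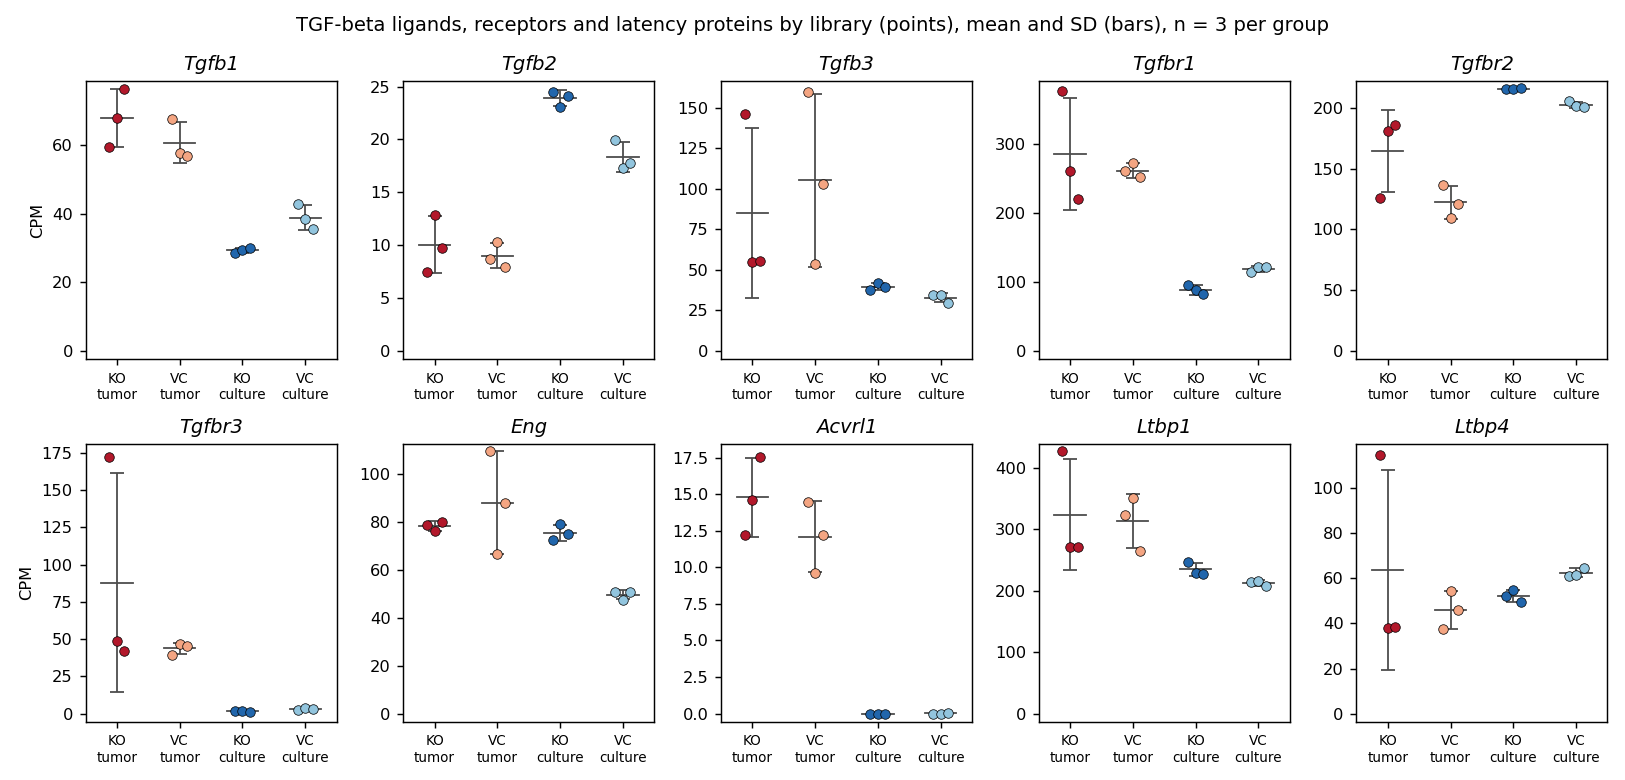
CPM (counts scaled by the library's total, vertical axes) of each of the 10 genes in KO tumors, VC tumors, KO cultures and VC cultures, with 1 point per library and bars for the mean and SD of 3 libraries. The 3 KO and 3 VC cultures do not overlap for any gene but Acvrl1, while the KO and VC tumors overlap for every gene. The share of all genes without overlap was not counted.

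Among the ligands, Tgfb1, the most widely expressed form, stood at 28.6, 29.5 and 29.9 CPM in KO cultures, against 42.8, 38.3 and 35.4 CPM in VC cultures. Every KO culture lay below every VC culture. The fall was 0.40 ± 0.07 on the log2 scale (SE; edgeR, Benjamini-Hochberg adjusted p = 0.00045), leaving 0.76 times the VC level. Tgfb2, the ligand that depends most on betaglycan, had 24.5, 23.1 and 24.2 CPM in KO cultures, against 19.98, 17.3 and 17.8 CPM in VC cultures. Its 3 KO values all lay above the VC values, a rise of 1.31-fold (log2 0.39 ± 0.07 SE; edgeR, adjusted p = 0.000617). Tgfb3 had 37.3, 42.1 and 39.7 CPM in KO cultures, against 34.7, 34.2 and 29.7 CPM in VC cultures. All 3 KO values were again above the VC values, a rise of 1.21-fold (log2 0.28 ± 0.07 SE; edgeR, adjusted p = 0.00463).

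Because the ligands moved in opposite directions, the make-up of the ligand RNA differed. Counts per kilobase of annotated exon were used to compare genes within a library. Tgfb1 made up 26.8 ± 0.495% of the RNA of the 3 ligands in KO cultures and 37.4 ± 0.775% in VC cultures (SD, n = 3 each). Tgfb2 made up 19.1 ± 1.16% in KO cultures and 15.4 ± 0.940% in VC cultures, and Tgfb3 54.1 ± 1.61% in KO cultures and 47.2 ± 1.46% in VC cultures. None of the 3 shares overlapped between KO and VC cultures (exact two-sided permutation test, p = 0.1 for each, the smallest possible). The shares are made of the same counts as the levels above. With Tgfb1 lower and both other ligands higher in every KO culture, the Tgfb1 shares could not overlap, so this adds no separate result.

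The type I receptor Tgfbr1 had 95.9, 87.5 and 81.7 CPM in KO cultures, against 114, 122 and 121 CPM in VC cultures. Its KO values were all below the VC values, a fall of 0.42 ± 0.06 on the log2 scale (SE; edgeR, adjusted p = 5.14e-05). Tgfbr1 lies on chromosome 4, where the median of 703 genes was itself lower by 0.28 in KO cultures. With each chromosome's median taken out, Tgfbr1 stood at -0.15 ± 0.06 (edgeR, adjusted p = 0.0562), and over all its alternatives in culture the adjusted p ran from 8.94e-16 to 0.136. The type II receptor Tgfbr2 had 215, 215 and 217 CPM in KO cultures, against 206, 202 and 201 CPM in VC cultures. The groups did not overlap, but the rise was only 1.07-fold (log2 0.10 ± 0.04 SE; edgeR, adjusted p = 0.0382). This call was lost under several settings, among them when any 1 culture other than VC culture 1 was left out (adjusted p from 0.0596 to 0.108), and over all its alternatives the adjusted p ran from 0.0132 to 1. The ratio of Tgfbr1 to Tgfbr2, per kilobase of exon, was 0.513 ± 0.0431 in KO cultures and 0.737 ± 0.0354 in VC cultures (SD, n = 3 each), without overlap. That lack of overlap follows from the single-gene values, with Tgfbr1 lower and Tgfbr2 higher in every KO culture.

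The co-receptor Tgfbr3 was close to the detection limit in cultured cells, with 29, 26 and 25 counts in KO cultures (1.68, 1.77 and 1.14 CPM), against 42, 73 and 59 counts in VC cultures (2.37, 3.92 and 3.19 CPM). It was lower in each KO culture than in any VC culture, with 0.48 times the VC level (log2 -1.07 ± 0.23 SE; edgeR, adjusted p = 0.00227). Eng had the smallest adjusted p of the 9 members tested. It stood at 72.6, 79.1 and 75.2 CPM in KO cultures, against 50.7, 47.5 and 50.7 CPM in VC cultures, a rise of 1.53-fold (log2 0.61 ± 0.05 SE; edgeR, adjusted p = 5.29e-07). The median of 876 genes on its chromosome 2 was higher by 0.25. With that median taken out Eng kept a rise of 0.37 ± 0.05 (edgeR, adjusted p = 5.48e-05), and over all its alternatives in culture the adjusted p ran from 1.09e-26 to 0.024. Of the 4048 annotated exon bases of Eng, 61 are shared with Fpgs on the other strand, and whether reads were counted by strand is not given.

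The latency proteins moved apart from each other. Ltbp1, which ties latent TGF-beta to the matrix, had 247, 229 and 228 CPM in KO cultures, against 215, 216 and 207 CPM in VC cultures, a rise of 1.11-fold (log2 0.15 ± 0.04 SE; edgeR, adjusted p = 0.0124). Ltbp4, a relative that binds latent Tgfb1 and elastic fibers, had 52.0, 55.0 and 49.6 CPM in KO cultures, against 61.0, 61.6 and 64.7 CPM in VC cultures. It fell to 0.84 times the VC level (log2 -0.25 ± 0.05 SE; edgeR, adjusted p = 0.001). Per kilobase of exon, Ltbp1 RNA was 2.72 ± 0.180 times that of Ltbp4 in KO cultures and 2.06 ± 0.111 times in VC cultures (SD, n = 3 each). The ratios did not overlap, which again follows from the single-gene values. Tested against a fold change of 1.2 in place of no change, Eng alone passed among the members that were higher, and Tgfbr1 and Tgfbr3 alone among those that were lower. In a fit of all 12 libraries, which shares its estimate of the spread with the tumors, Eng and Tgfb1 remained called (edgeR, adjusted p = 0.024 and 0.0478). The calls of Tgfb2, Tgfb3, Tgfbr1, Tgfbr2, Tgfbr3, Ltbp1 and Ltbp4 were lost there (adjusted p from 0.136 for Tgfbr1 to 0.785 for Tgfb3).

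**Figure D2:**
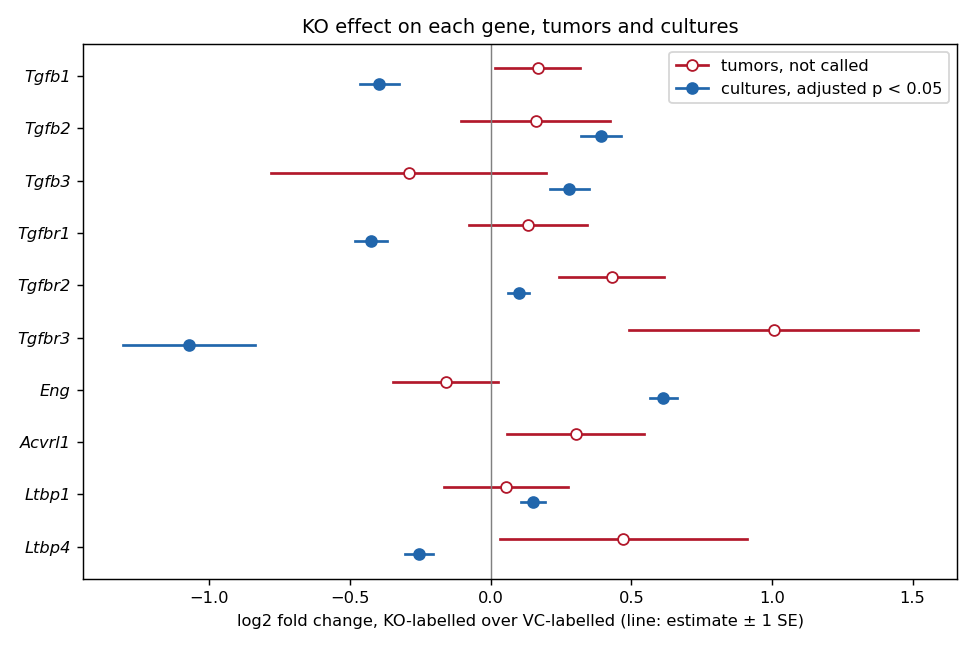
Log2 fold change of KO-labelled over VC-labelled samples (horizontal axis) for each gene, in tumors (red) and cultures (blue), with lines of 1 SE to each side of the estimate and filled points for an adjusted p under 0.05. The 9 culture points tested are filled and none of the 10 tumor points is. Acvrl1 has no culture point.

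In tumors, none of the 10 members differed between KO and VC at an adjusted p under 0.05, and the KO and VC values of every member overlapped. How many of all 17153 genes overlapped was not counted, so the overlap does not set the members apart from other genes. In these bulk samples, fewer cells of a type and less RNA per cell cannot be told apart. The count was 0 with edgeR, DESeq2 and limma-voom, and 0 members had an unadjusted p under 0.05 in edgeR, where 5.57% of all 17153 genes had one. Among all genes 0% were called higher and 0% lower by edgeR. The median log2 fold change was 0.16 over the 10 members and 0.02 over all genes.

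Among the receptors in tumors, Tgfbr2 had 126, 181 and 186 CPM in KO tumors POGZ_KO_8454, POGZ_KO_8455 and POGZ_KO_8459, against 137, 110 and 121 CPM in VC tumors POGZ_VC_8447, POGZ_VC_8448 and POGZ_VC_8451. KO tumors POGZ_KO_8455 and POGZ_KO_8459 lay above the VC tumors and tumor POGZ_KO_8454 lay among them (log2 fold change 0.43 ± 0.19 SE; edgeR, unadjusted p = 0.0508, adjusted p = 0.861). Tgfbr3 had 173, 48.8 and 42.2 CPM in KO tumors, against 39.3, 46.5 and 45.6 CPM in VC tumors. Its log2 fold change of 1.01 ± 0.51 (SE; edgeR, adjusted p = 0.861) was that of tumor POGZ_KO_8454, and without this tumor it was 0.05. Tgfbr1 had 376, 260.0 and 219 CPM in KO tumors, against 259.8, 272 and 251 CPM in VC tumors. Tumor POGZ_KO_8454 was the highest of the 6 and tumor POGZ_KO_8459 the lowest, with a log2 fold change of 0.13 ± 0.21 (SE) with all tumors and -0.13 without tumor POGZ_KO_8454.

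Eng was even in KO tumors, at 78.8, 76.2 and 80.3 CPM, and spread in VC tumors, at 109.7, 66.8 and 88.0 CPM. The KO values lay within the VC range (log2 fold change -0.16 ± 0.19 SE; edgeR, adjusted p = 0.927). Acvrl1 had 12.2, 14.6 and 17.6 CPM in KO tumors, against 14.4, 9.59 and 12.2 CPM in VC tumors, with overlap and a log2 fold change of 0.30 ± 0.24 (SE; edgeR, adjusted p = 0.894).

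Among the ligands in tumors, Tgfb1 had 59.5, 67.8 and 76.2 CPM in KO tumors, against 67.5, 57.8 and 56.9 CPM in VC tumors. The log2 fold change was 0.17 ± 0.15 (SE; edgeR, adjusted p = 0.913), opposite in sign to that in culture. Tgfb2 had 7.503, 12.9 and 9.77 CPM in KO tumors, against 8.70, 10.3 and 7.97 CPM in VC tumors, and KO tumors held both its lowest and its highest value. Tgfb3 varied the most within both groups, with 146, 54.6 and 55.2 CPM in KO tumors, against 160.0, 53.4 and 103 CPM in VC tumors. Its high values were in tumor POGZ_KO_8454 and in VC tumors POGZ_VC_8447 and POGZ_VC_8451, so that the spread was as wide within a label as between labels (log2 fold change -0.29 ± 0.49 SE; edgeR, adjusted p = 0.944).

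The latency genes followed tumor POGZ_KO_8454 as well. Ltbp1 had 428, 271 and 271 CPM in KO tumors, against 324, 349.9 and 265 CPM in VC tumors. Ltbp4 had 115, 37.8 and 38.2 CPM in KO tumors, against 37.4, 54.4 and 45.8 CPM in VC tumors. Tumor POGZ_KO_8454 was the highest of the 6 for both, and without it the log2 fold changes were -0.21 for Ltbp1 and -0.28 for Ltbp4, against 0.05 and 0.47 with it. In this tumor the summed levels of every list of cell type markers but that of T cells were the lowest of the KO tumors. The 11 fibroblast markers summed to 3922 CPM and the 8 pericyte and smooth muscle markers to 205 CPM. KO tumors held up to 7299 and 288 CPM of these, and VC tumors 2762 to 4372 and 174 to 208 CPM. Its 12 endothelial markers summed to 392 CPM and its 11 macrophage and monocyte markers to 964 CPM. KO tumors held up to 499.9 and 2310 CPM of these, and VC tumors 322 to 494 and 700 to 1215 CPM. The next KO tumor was close for macrophage and monocyte markers (968 CPM) and for neutrophil markers (140 CPM, against 132 CPM in tumor POGZ_KO_8454). The sum of its 8 epithelial markers of 4T1 cells, 1677 CPM, was the lowest of all 6 tumors. The part of other cell types in these tumor levels was not tested.

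Whether the KO effect differed between tumors and cultures was tested in a single fit of all 12 libraries. By edgeR none of the 10 members passed, where 1.13% of 18419 genes were called higher and 0.912% lower in tumors relative to cultures. At an unadjusted p under 0.05 there were 4 members, Tgfb1, Tgfbr1, Tgfbr3 and Eng, where 15.4% of all genes had one. For Eng, higher in KO cultures and not called in tumors, the tumor effect minus the culture effect was -0.77 ± 0.20 (SE; edgeR, adjusted p = 0.0834). For Tgfb1, lower in KO cultures, it was 0.57 ± 0.16 (SE; edgeR, adjusted p = 0.11). For Tgfbr1 it was 0.56 ± 0.23 and for Tgfbr3 2.07 ± 0.73 (SE; edgeR, adjusted p = 0.265 and 0.187). The median KO over VC log2 fold change of chromosome 2, which holds Eng, was 0.25 in cultures and 0.05 in tumors. It was -0.28 and -0.07 for chromosome 4 (Tgfbr1), -0.05 and 0.07 for chromosome 7 (Tgfb1) and 0.10 and -0.02 for chromosome 5 (Tgfbr3). The difference with chromosome medians taken out was not tested for any member. DESeq2 called Eng (adjusted p = 0.021) and Tgfbr3 (adjusted p = 0.0306), where it called 3.04% of all genes higher and 2.58% lower, and limma-voom called 0 members.

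The count of members in this test depended on single tumors. Without tumor POGZ_KO_8454, edgeR called Tgfb1 (0.65, adjusted p = 0.0249), Tgfbr2 (0.49, adjusted p = 0.0352) and Tgfbr3 (1.11, adjusted p = 0.0338) higher and Eng (-0.78, adjusted p = 0.0467) lower. In that setting 4.18% of all 19120 genes were called higher and 4.12% lower, so that calls were more frequent over all genes as well. Without tumor POGZ_VC_8448, Eng was called at -0.94 (edgeR, adjusted p = 0.00539), where 1.75% of all genes were called higher and 1.56% lower. Over all alternatives the adjusted p of the difference ran from 0.00539 to 0.222 for Eng, from 0.0249 to 0.27 for Tgfb1, from 0.0352 to 0.712 for Tgfbr2 and from 0.0306 to 0.453 for Tgfbr3.

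Tumors were next compared with cultures of the same label. In both labels, tumors held more Tgfb1, Tgfb3, Tgfbr1, Tgfbr3, Acvrl1 and Ltbp1 RNA and less Tgfb2 and Tgfbr2 RNA than cultures. KO tumors over KO cultures had 6 members higher and 2 lower, where 37.7% of 18419 genes were higher and 26.4% lower (edgeR, Benjamini-Hochberg adjusted p under 0.05). VC tumors over VC cultures had 7 higher and 2 lower, where 37.9% were higher and 27.0% lower. The median log2 fold change of the 10 members was 0.82 in KO and 0.76 in VC samples, against 0.16 and 0.17 over all genes. System, library preparation and the hosts' cells cannot be told apart here, and the KO and VC values of these 2 comparisons enter the comparisons above as well.

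Tgfbr3 showed the widest of these differences among the genes with counts in every library. It averaged 87.8 ± 73.4 CPM in KO tumors, against 1.53 ± 0.337 CPM in KO cultures, and 43.8 ± 3.95 CPM in VC tumors, against 3.16 ± 0.773 CPM in VC cultures (SD, n = 3 each). The log2 fold changes were 5.90 ± 0.57 in KO and 3.82 ± 0.51 in VC samples (SE; edgeR, adjusted p = 4e-06 and 4.98e-05). Without tumor POGZ_KO_8454, which had 173 CPM, the KO value was 4.92 ± 0.21 (edgeR, adjusted p = 1.18e-08, within a range from 1.75e-35 to 0.000561 over all its alternatives). Tgfbr1 was 3.30-fold higher in KO tumors than in KO cultures (log2 1.72 ± 0.17 SE; edgeR, adjusted p = 4.15e-06) and 2.24-fold higher in VC tumors than in VC cultures (log2 1.16 ± 0.16 SE; edgeR, adjusted p = 7.58e-05). Tgfbr2 went the other way, at 0.78 times the culture level in KO tumors (log2 -0.36 ± 0.13 SE; edgeR, adjusted p = 0.0285) and 0.62 times in VC tumors (log2 -0.70 ± 0.13 SE; edgeR, adjusted p = 0.000655). The KO call for Tgfbr2 was lost without tumor POGZ_KO_8454 (-0.22, adjusted p = 0.0556) and without any 1 of the 3 KO cultures (adjusted p from 0.058 to 0.0665), within a range from 0.00289 to 0.141 over all its alternatives.

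The receptor pair stood in opposite order in the 2 systems. Per kilobase of exon, Tgfbr1 RNA was 2.34 ± 1.23 times that of Tgfbr2 in KO tumors and 0.513 ± 0.0431 times in KO cultures, and 2.69 ± 0.371 times in VC tumors and 0.737 ± 0.0354 times in VC cultures (SD, n = 3 each). Each of the 6 tumors had a ratio above 1 (lowest 1.47, in tumor POGZ_KO_8459; highest 3.75, in tumor POGZ_KO_8454), and each of the 6 cultures a ratio below 1. Both tumor groups lay apart from their cultures (exact two-sided permutation test on the log2 ratio, p = 0.1 for each, the smallest possible). This follows from the single-gene values, with Tgfbr1 higher and Tgfbr2 lower in every tumor than in any culture of its label.

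**Figure D3:**
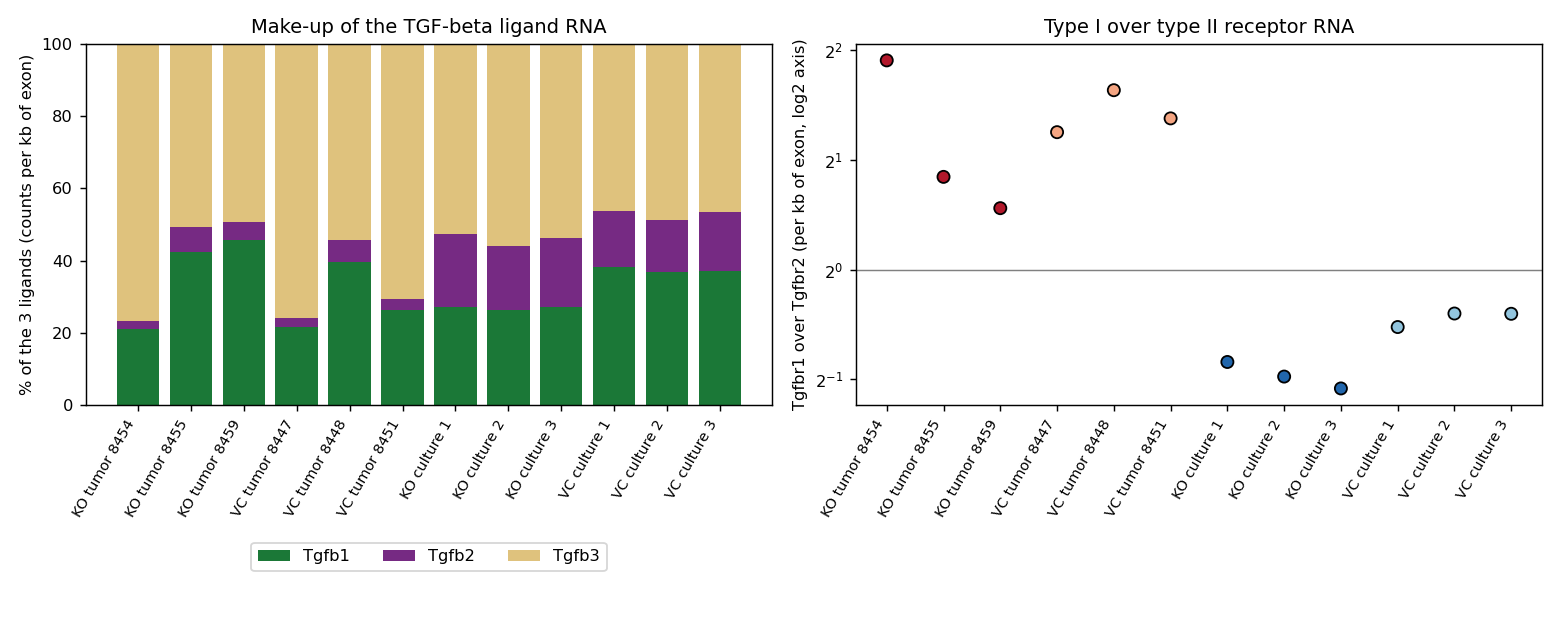
Left, percent of the summed RNA of the 3 ligands (counts per kilobase of exon) made up by Tgfb1, Tgfb2 and Tgfb3 in each library. Right, Tgfbr1 over Tgfbr2 per kilobase of exon in each library on a log2 axis, with a line at 1. The Tgfb2 share is 2.304 to 6.99% in tumors and 14.4 to 20.2% in cultures, and the receptor ratio lies above 1 in every tumor and below 1 in every culture.

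For the ligands, Tgfb1 was 2.36-fold higher in KO tumors than in KO cultures (log2 1.24 ± 0.11 SE; edgeR, adjusted p = 2.98e-06) and 1.59-fold higher in VC tumors than in VC cultures (log2 0.67 ± 0.11 SE; edgeR, adjusted p = 0.0003). Tgfb2 stood at 0.43 times the culture level in KO tumors (log2 -1.22 ± 0.17 SE; edgeR, adjusted p = 7.46e-05) and at 0.50 times in VC tumors (log2 -0.99 ± 0.18 SE; edgeR, adjusted p = 0.000451). Its share of the ligand RNA per kilobase was 4.79 ± 2.36% in KO tumors and 19.1 ± 1.16% in KO cultures, and 3.92 ± 1.96% in VC tumors and 15.4 ± 0.940% in VC cultures (SD, n = 3 each). Tgfb3 was higher by 1.14 ± 0.40 in KO tumors than in KO cultures (log2, SE; edgeR, adjusted p = 0.027) and by 1.70 ± 0.41 in VC tumors than in VC cultures (edgeR, adjusted p = 0.00336). The KO call for Tgfb3 rested on tumor POGZ_KO_8454, without which it was 0.48 (edgeR, adjusted p = 0.198), and it was also lost without any 1 of the 3 KO cultures (adjusted p from 0.061 to 0.077); over all its alternatives the adjusted p ran from 0.00953 to 0.198.

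The latency genes differed less between systems. Ltbp1 was 1.41-fold higher in KO tumors than in KO cultures (log2 0.50 ± 0.17 SE; edgeR, adjusted p = 0.0209) and also higher in VC tumors than in VC cultures (log2 0.59 ± 0.17 SE; edgeR, adjusted p = 0.00884). The VC call for Ltbp1 was lost with no filter on low counts (0.40, adjusted p = 0.0655), within a range from 0.000183 to 0.0655 over all its alternatives. The KO call for Ltbp1 was lost without tumor POGZ_KO_8454 (0.22, adjusted p = 0.0761), KO culture 2 (0.47, adjusted p = 0.0663) or KO culture 3 (0.47, adjusted p = 0.0651), within a range from 0.00582 to 0.149 over all its alternatives. Ltbp4 was not called in KO samples (log2 0.32 ± 0.35 SE; edgeR, adjusted p = 0.437) or in VC samples (log2 -0.41 ± 0.35 SE; edgeR, adjusted p = 0.328). Without tumor POGZ_KO_8454, Ltbp4 was lower in tumors in both, at -0.45 in KO samples (edgeR, adjusted p = 0.0111) and -0.41 in VC samples (edgeR, adjusted p = 0.00845), where the adjusted p over all alternatives ran from 0.0111 to 0.802 and from 0.00845 to 0.559. The VC comparison holds no KO tumor, and its estimate was -0.41 with that tumor in the fit as well. With only the 6 VC libraries fitted, Ltbp4 was called lower in VC tumors too (-0.44; edgeR, adjusted p = 0.0274).

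Acvrl1, the type I receptor of endothelial cells, was found in tumors and all but missing from cultures. There were 552 counts in the 3 KO tumors, against 0 in the 3 KO cultures. Against a floor of 3 counts per culture library (0.172 CPM), Acvrl1 was at least 86.1-fold higher in KO tumors. VC tumors held 240 counts and VC cultures 1 count, a ratio of CPM of 640 with an exact 95% interval of 114 to 25380. The floor and the interval cover counting error only.

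Eng did not share this pattern. KO tumors averaged 78.4 ± 2.06 CPM and KO cultures 75.6 ± 3.28 CPM (SD, n = 3 each), with overlap (log2 fold change 0.08 ± 0.14 SE; edgeR, adjusted p = 0.625). VC tumors averaged 88.2 ± 21.5 CPM and VC cultures 49.6 ± 1.84 CPM, 1.81-fold higher in tumors (log2 0.85 ± 0.14 SE; edgeR, adjusted p = 0.000276). The summed level of 12 endothelial markers was 392 to 499.9 CPM in KO tumors and 38.0 to 38.7 CPM in KO cultures, and 322 to 494 CPM in VC tumors and 45.4 to 51.3 CPM in VC cultures. In the cultures nearly all of that sum was Flt1, a VEGF receptor (29.3 CPM on average in KO cultures and 37.6 CPM in VC cultures), and Egfl7 (8.43 and 9.28 CPM in KO and VC cultures). Pecam1, Cdh5 and Kdr, which define endothelial cells, were at 0.644 CPM or less in every culture. Eng RNA in cultures, at 47.5 to 79.1 CPM, was thus measured where those defining markers were near 0. In tumors the part of endothelial cells in Eng and Acvrl1 was not tested.

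**Figure D4:**
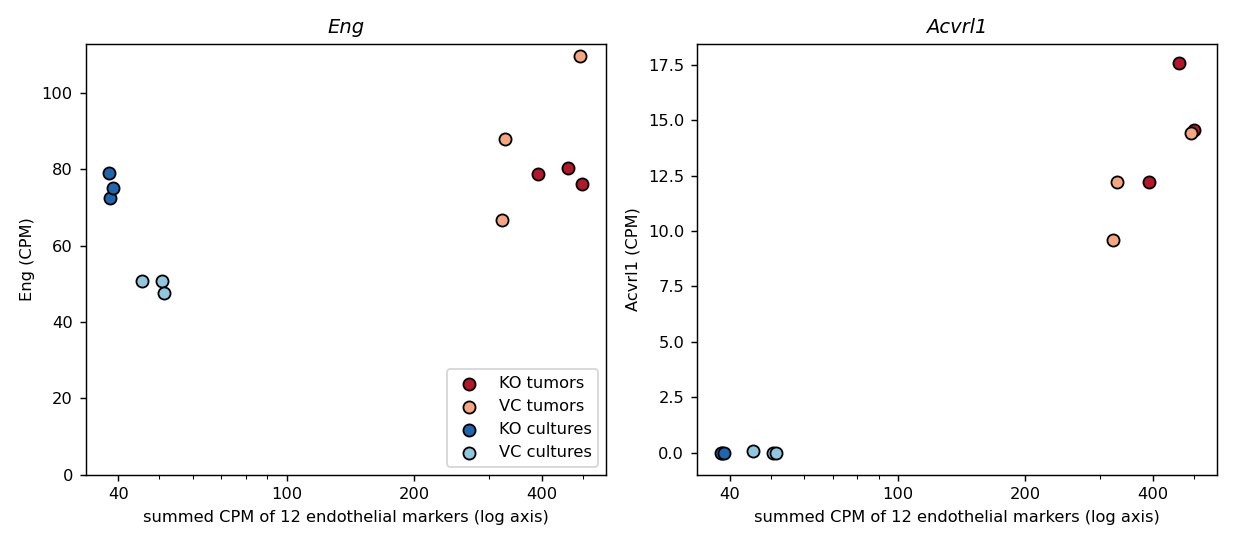
Eng (left) and Acvrl1 (right) in CPM against the summed CPM of 12 endothelial markers on a log axis, with 1 point per library, for KO tumors, VC tumors, KO cultures and VC cultures. All cultures lie at a marker sum of 38.0 to 51.3 CPM, where Eng reads 47.5 to 79.1 CPM and Acvrl1 is at or near 0.

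Levels were also set in order within each group as TPM (counts per kilobase of exon, scaled to the same sum in each library). In KO tumors Tgfbr1 led at 95.3 ± 19.1 TPM, followed by Ltbp1 (65.9 ± 11.4), Tgfb3 (53.7 ± 27.0), Tgfbr2 (45.2 ± 13.1), Eng (43.0 ± 4.15), Tgfb1 (30.0 ± 5.93), Tgfbr3 (28.2 ± 20.6), Ltbp4 (20.9 ± 12.2), Acvrl1 (7.75 ± 1.88) and Tgfb2 (3.93 ± 1.46 TPM; SD, n = 3). The ranges of neighbours in this order overlapped but for Eng and Tgfb1, Ltbp4 and Acvrl1, and Acvrl1 and Tgfb2. In VC tumors Tgfbr1 again led at 90.0 ± 13.5 TPM and Tgfb2 was last at 3.51 ± 0.712 TPM, with Tgfb3 and Ltbp1 next to the top and Acvrl1 next to last.

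Cultures had another order. In KO cultures Tgfbr2 led at 63.5 ± 1.32 TPM, followed by Ltbp1 (52.9 ± 2.91), Eng (45.04 ± 2.68), Tgfbr1 (32.6 ± 3.10), Tgfb3 (28.3 ± 2.08), Ltbp4 (19.5 ± 1.47), Tgfb1 (14.002 ± 0.353), Tgfb2 (9.95 ± 0.253), Tgfbr3 (0.565 ± 0.136 TPM; SD, n = 3) and Acvrl1 at 0. Only Tgfbr1 and Tgfb3 overlapped among neighbours in KO cultures. In VC cultures the order was Tgfbr2 (58.3 ± 3.83), Ltbp1 (46.8 ± 3.74), Tgfbr1 (42.9 ± 2.28), Eng (28.8 ± 1.49), Tgfb3 (22.9 ± 3.18), Ltbp4 (22.7 ± 0.611), Tgfb1 (18.2 ± 2.62), Tgfb2 (7.46 ± 0.847), Tgfbr3 (1.13 ± 0.291 TPM) and Acvrl1, with overlap between Ltbp1 and Tgfbr1 and between Tgfb3 and Ltbp4. Eng stood above Tgfbr1 in KO cultures and below it in VC cultures.

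The wider pathway was read from 6 lists of 92 genes around these members. In cultures 58 passed the filter, of which 22 were higher and 14 lower in KO (edgeR, Benjamini-Hochberg adjusted p under 0.05), against 23.0% higher and 24.9% lower among all genes. The median log2 fold change of the 58 was 0.08. With chromosome medians taken out, 20 of the 58 were higher and 10 lower, where 3087 of all 15705 genes were higher and 3219 lower. In tumors 71 passed the filter and 0 were called, with a median of -0.004.

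Of the genes for storage and activation of latent TGF-beta, 8 were higher and 3 lower of 15 tested in KO cultures. Thbs1 (thrombospondin 1, an activator of latent TGF-beta) averaged 3058 ± 65.2 CPM in KO cultures and 1349.8 ± 39.7 CPM in VC cultures (SD, n = 3 each; log2 1.19 ± 0.04 SE; edgeR, adjusted p = 1.3e-09). Itgb6, a subunit of the integrin that frees the ligand from its propeptide, averaged 118 ± 1.71 CPM in KO cultures and 55.4 ± 1.82 CPM in VC cultures (log2 1.10 ± 0.04 SE; edgeR, adjusted p = 1.26e-09). Itgb5, another integrin subunit that pairs with the alpha v chain, rose by 0.47 ± 0.04, and the protease Mmp9 fell by 1.04 ± 0.07 on the log2 scale (SE; edgeR, adjusted p = 6.31e-07 and 2.91e-07). In tumors Thbs1 averaged 653 ± 285 CPM in KO and 549 ± 88.4 CPM in VC tumors (edgeR, adjusted p = 0.932), and none of 21 genes of the list was called. Thbs1, Itgb6 and Mmp9 lie on chromosome 2, with its median of 0.25 in KO cultures. With chromosome medians taken out, an alternative added after the data were seen, Thbs1 was higher by 0.94 ± 0.04 and Itgb6 by 0.86 ± 0.04, and Mmp9 stood at -1.29 ± 0.07 (log2, SE; edgeR, adjusted p = 9.95e-09, 1.14e-08 and 6.33e-08).

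Among 16 SMAD regulators and feedback genes, 5 were higher and 6 lower in KO cultures. Pmepa1 and Skil, which TGF-beta induces and which dampen SMAD signaling, rose by 0.72 ± 0.04 and 0.71 ± 0.04 (log2, SE; edgeR, adjusted p = 2.88e-08 and 3.34e-08). Trim33, which binds SMAD proteins, rose by 0.41 ± 0.04 and Strap, which binds TGF-beta receptors, fell by 0.49 ± 0.04 (edgeR, adjusted p = 2.78e-06 and 1.28e-06). Trim33 and Skil lie on chromosome 3 (median 0.33), Pmepa1 on chromosome 2 (0.25) and Strap on chromosome 6, where the median of 491 genes was -0.45. With chromosome medians taken out, the calls of Trim33 (0.08 ± 0.04, adjusted p = 0.108) and Strap (-0.033 ± 0.041, adjusted p = 0.568) were lost, while Skil kept a rise of 0.38 ± 0.04 and Pmepa1 one of 0.48 ± 0.04 (log2, SE; edgeR, adjusted p = 8.64e-06 and 1.3e-06). Of 7 SMAD genes tested, Smad1 (0.20 ± 0.05) and the inhibitory Smad6 (0.50 ± 0.17) were higher and Smad3 (-0.10 ± 0.04) was lower (log2, SE; edgeR, adjusted p = 0.00557, 0.0319 and 0.048).

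Of the list of activin, BMP and GDF ligands, 6 of 23 genes passed the filter in cultures. They include Bmp1, which despite its name is a protease and not a ligand of this family. The activin subunits Inhba (0.47 ± 0.06) and Inhbb (1.84 ± 0.28) were higher and Bmp7 (-0.91 ± 0.09) was lower (log2, SE; edgeR, adjusted p = 2.16e-05, 0.00016 and 4.9e-06). Inhbb was low in both groups, at 2.55 ± 0.267 CPM in KO and 0.709 ± 0.348 CPM in VC cultures (SD, n = 3 each). Of 8 genes tested from the list of activin and BMP receptors, 4 were higher and 2 lower. Those higher were Cd109 (0.96 ± 0.06), a co-receptor that restrains TGF-beta signaling, Bmpr1a (0.25 ± 0.04), Bmpr2 (0.27 ± 0.05) and Acvr1 (0.20 ± 0.06; log2, SE; edgeR, adjusted p from 1.08e-07 to 0.0171). Those lower were Acvr1b (-0.24 ± 0.09) and Acvr2b (-0.50 ± 0.17; log2, SE; edgeR, adjusted p = 0.0415 and 0.0286). Acvr1 lies on chromosome 2, and with chromosome medians taken out it stood at -0.047 ± 0.061 (edgeR, adjusted p = 0.584). The call of Acvr1b was lost there as well (-0.21 ± 0.09 SE; edgeR, adjusted p = 0.0808). Of 6 extracellular inhibitors tested, the BMP antagonist Nog was higher (2.297 ± 0.464), at 1.03 ± 0.370 CPM in KO and 0.198 ± 0.134 CPM in VC cultures, and the activin antagonist Fstl3 was lower (-1.01 ± 0.09; log2, SE; edgeR, adjusted p = 0.00131 and 2.54e-06). In tumors no gene tested was called from the lists of ligands (8 genes, Bmp1 among them), receptors (10), inhibitors (9), SMAD genes (7) or regulators (16).

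**Figure D5:**
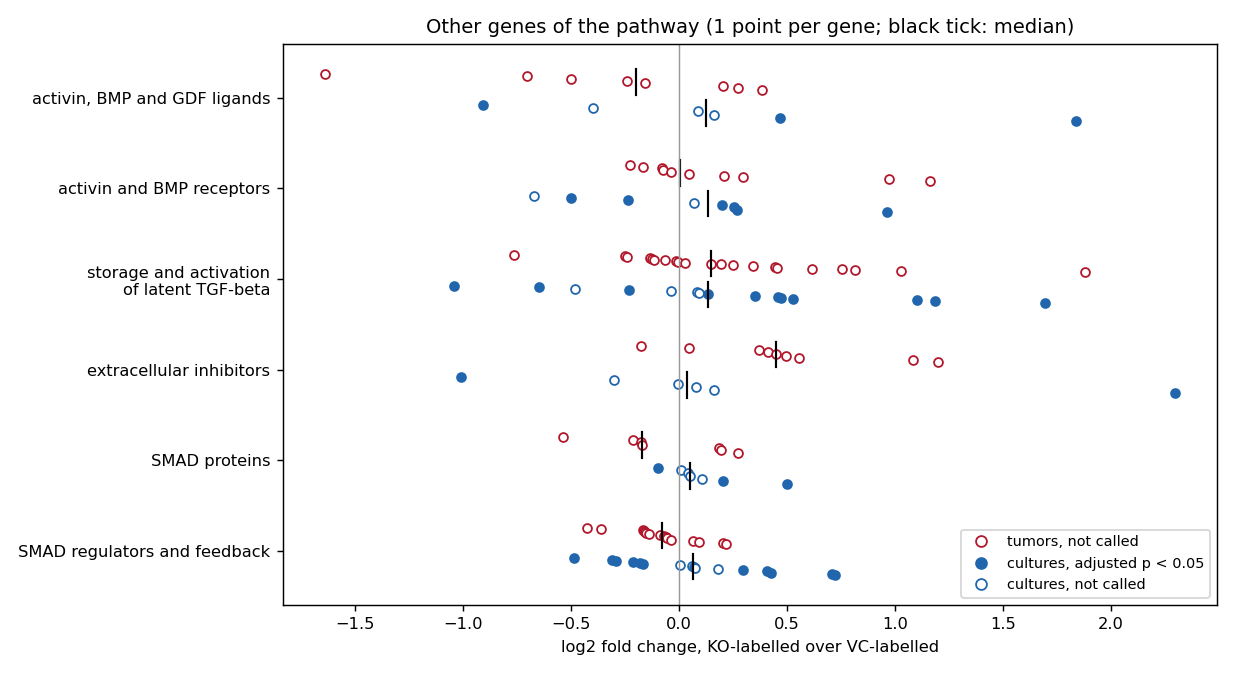
Log2 fold change of KO-labelled over VC-labelled samples (horizontal axis) for the genes of each pathway list, 1 point per gene, in tumors (red, upper row of each list) and cultures (blue, lower row), with filled points for an adjusted p under 0.05 and a tick at the list's median. The 71 tumor points are all open, and 36 of the 58 culture points are filled.

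The genes whose levels ran most like those of a member were looked up over the 6 tumors alone, since tumors and cultures form separate clusters. With 10317 candidate genes and 6 libraries, high values are reached easily, and the libraries share depth and cell make-up. For Tgfb3 the closest were Sephs1, Rph3al and Csnk2a1 (Pearson r of log2 CPM from 0.994 to 0.999), and for Tgfb1 Samm50, Sar1a and Pdhb (0.985 to 0.994). For Tgfb2 they were Gclm, Tnfrsf22 and Samd8 (0.978 to 0.985). For Tgfbr2 they were Itgb3, Sephs2 and Smc4 (0.986 to 0.993), for Eng Rnpep, Nmt1 and Stam2 (0.981 to 0.983) and for Acvrl1 Fyb, Ccdc127 and Atp6v0c-ps2 (0.993 to 0.997). For Ltbp1 Kdm2b and Ago1 were among the closest (0.991 and 0.987), and for Ltbp4 Cdc14a, Zbtb20 and Flad1 (0.991 to 0.993). For Tgfbr1 Dnm1l and Zfp28 were among them (0.995 and 0.993), and for Tgfbr3 Zfp608, Ror1 and Cox19 (0.989 to 0.997). Without tumor POGZ_KO_8454 the values for Tgfbr3 were 0.816, 0.633 and 0.932, in the same order.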

How the data were processed

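RNA was sequenced after depletion of ribosomal RNA (KAPA RNA Hyper Prep with Ribo-Erase), per the labels' protocols. The authors deposited raw counts per gene, in 1 table for the cultures and 1 for the tumors. The submitters' processing notes name the genome build mm10 and, as tools, featureCounts 1.4.4, STAR 2.3.0e and Trimmomatic 0.32; settings, annotation release and strand are not given in the sources used here. The deposited counts were used unchanged in R 4.3.3 with edgeR 4.0.16 (filterByExpr, TMM scaling, quasi-likelihood test, Benjamini-Hochberg adjustment over all genes tested, called at an adjusted p under 0.05). KO and VC were compared within cultures and within tumors in separate fits of 6 libraries, and the difference of these effects and both tumor over culture contrasts came from 1 fit of all 12. The SE was obtained by dividing the absolute log2 fold change by the root of the F statistic. CPM divides by the total count, and TPM uses the union exon length of GENCODE M21 on GRCm38, the assembly of mm10, which held 37607 of the 39017 IDs. Single values and within-library ratios were compared by the exact permutation test over libraries.

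The members and lists were chosen with earlier results of these data known. The rule for named genes took the 10 members, Pogz, up to 4 called genes of each pathway list in each KO over VC comparison or, with none called, up to 2 of the highest mean (of the latter only Thbs1 is described in tumors), and the 3 genes most like each member (average log2 CPM of 3 or more, no clone names; 2 of these are not reported here). Alternatives were RLE, upper-quartile and total-count scaling, no filter and a filter of 1 CPM in 3 libraries, DESeq2 1.42.0, limma-voom (limma 3.58.1), a stricter adjusted p of 0.01, glmTreat at a fold of 1.2, leaving out structural and mitochondrial RNA, leaving out each library or tumors POGZ_VC_8451 and POGZ_KO_8459 together, thinning tumors to 4712001 counts, other sets of libraries in the fit, taking out chromosome medians (over genes averaging 3 or more in log2 CPM; for the pathway genes this was added after the data were seen), and a block for the culture number. Libraries of a group differed by more than sampling noise (chi-square per gene of 3.31 or more), so none was taken for a repeat deposit of another; this does not show that the cultures were separate.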

Additional observations from a re-analysis of the deposited data

Results flagged for a closer look

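The KO effect differed between tumors and cultures for 3 of 74 genes of the pathway lists, none of them a member, by the test of the difference itself in the fit of all 12 libraries (edgeR, Benjamini-Hochberg adjusted p under 0.05), where 1.13% of 18419 genes were called higher and 0.912% lower. For Inhba, the activin A subunit, the tumor effect minus the culture effect was -1.17 ± 0.18 (log2, SE; adjusted p = 0.00742). Inhba had 98.5, 138 and 101 CPM in KO tumors, against 198, 200.03 and 153 CPM in VC tumors, and 41.4, 43.7 and 44.96 CPM in KO cultures, against 33.0, 30.6 and 31.1 CPM in VC cultures. The KO tumors all lay below the VC tumors, although the tumor comparison alone did not pass (edgeR, adjusted p = 0.835), and the KO cultures all lay above the VC cultures. For Skil the difference was -0.86 ± 0.19 (edgeR, adjusted p = 0.0451), with means of 412 ± 96.7 CPM in KO tumors and 460.1 ± 10.9 CPM in VC tumors, and 201 ± 5.44 CPM in KO cultures and 123 ± 2.46 CPM in VC cultures (SD, n = 3 each). For Pmepa1 it was -0.75 ± 0.17 (edgeR, adjusted p = 0.0478), with means of 229 ± 41.8 CPM in KO tumors and 235 ± 26.2 CPM in VC tumors, and 159.6 ± 3.99 CPM in KO cultures and 97.3 ± 2.36 CPM in VC cultures. Skil lies on chromosome 3 and Pmepa1 on chromosome 2, whose medians were higher by 0.33 and 0.25 in KO cultures, and the difference with these medians taken out was not tested.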

How the results depend on the processing

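In cultures no member changed direction under any alternative. The 5 members called higher became 3 at an adjusted p of 0.01, 1 against a fold change of 1.2 and 1 with all 12 libraries in 1 fit, and 4 to 5 with a library left out. The 4 called lower became 2 against a fold change of 1.2 and 1 with all 12 libraries in 1 fit. Over all genes the 3610 higher and 3913 lower became 1393 and 1692 against that fold, and 663 and 838 in that fit. Same-numbered cultures did not deviate together (correlations of -0.096, -0.012 and 0.042), and with the number as a replicate block 4 members were higher and 4 lower, Tgfbr2 missing the threshold (adjusted p = 0.0764). In tumors 0 members were called under any alternative. Over all genes DESeq2 called 26 higher and 40 lower and the fit of 12 libraries 16 and 48. The sign of a tumor log2 fold change turned with 1 library left out for Tgfb2 (-0.058 to 0.32), Tgfb3 (-0.93 to 0.11), Tgfbr1 (-0.13 to 0.28), Ltbp1 (-0.21 to 0.16), Ltbp4 (-0.28 to 0.74) and Pogz (-0.068 to 0.25, and -0.0088 with chromosome medians taken out). For the tumor effect minus the culture effect, DESeq2 called 1 member higher and 1 lower, and leaving out a library gave 0 to 3 higher and 0 to 1 lower. There the sign turned for Ltbp1 (-0.36 to 0.041) and Ltbp4 (-0.032 to 1.01). Over all genes the 209 higher and 168 lower became 516 and 437 by DESeq2, 73 and 52 at an adjusted p of 0.01, 92 lower against a fold change of 1.2, and 85 to 800 and 62 to 788 with a library left out, the highest without tumor POGZ_KO_8454. Of the members lower in KO tumors than in KO cultures, 1 of 2 was called under RLE scaling, an adjusted p of 0.01, a fold of 1.2 or the 6 libraries alone, and 1 to 2 with a library left out. In that comparison the sign turned for Eng (-0.014 to 0.12 with a library left out, and -0.11 with no filter) and Ltbp4 (-0.45 to 0.60). Relative to its chromosome's median, an alternative added for pathway genes after seeing the data, Acvr1 in cultures turned to -0.047. The cause of these shifts was not tested. The VC tumors had the fewest counts, which limits Tgfb2 there (41 to 86 counts per library).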
